A study of Mus musculus with 8 samples.

Results

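The genes described here are 42 mouse genes of homologous recombination, the Fanconi anemia pathway and the DNA damage checkpoint, with a few partners in mismatch and uracil repair. They were listed by gene name, with earlier results of these arrays known. Probes were assigned to them through the RefSeq accession that the array gives. A probe was matched for 41 of the 42, out of 19751 genes with a probe on the array, and no probe was matched for Rad51c. AtT20 is an established line of mouse pituitary corticotroph tumor cells, which secrete ACTH. Control cells and cells treated with HX630, a synthetic agonist of the retinoid X receptors (RXRs), were kept for 48 hr in medium with stripped serum, and HX630 was used at 10 μM. RNA of 4 control samples and 4 HX630 samples was hybridized to 1-color Agilent arrays, 1 sample per array, to ask which transcripts differ after HX630 treatment. One dose, one time and one cell line were used, and nothing in the labels states that the replicates came from separate experiments, so the p-values measure the spread between these samples only.

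Homologous recombination repairs broken DNA from an intact copy, usually the sister chromatid, and is therefore active mainly in S and G2 phase. The broken ends are trimmed, the exposed strand is prepared for pairing with the intact copy with the help of BRCA2 and a family of paralog proteins, and the joined molecules are later taken apart by helicases and nucleases. The Fanconi pathway removes crosslinks between DNA strands, and the checkpoint kinases ATM and ATR signal damage to CHK1, CHK2 and the cell cycle machinery. Many of these genes are transcribed more in dividing than in resting cells.

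Values are log2 processed signals minus the 75th percentile of the array, called scaled signals below, so that 0 stands for that percentile. They compare samples for the same probe and do not rank one gene against another. A gene was called when the limma adjusted p was below 0.01 and the fold change above 1.5, which is 0.58 on the log2 scale, and a gene with several probes was represented by its brightest. Rose and fell are used of an adjusted p below 0.01 at any fold change. The 75th percentile of the raw intensities was 1335 to 1863 on the control arrays and 1803 to 1899 on the HX630 arrays, and 69.7% to 73.5% of the probes on an array were well above background. The arrays of each treatment had a slide and a scan of their own, so an effect of the slide or the scan cannot be told apart from one of HX630. Of 8 corticotroph markers, 7 were well above background on all arrays, among them Pomc and Tbx19, and Avpr1b was on none. The summed signal of the corticotroph markers, in multiples of the 75th percentile, was 526 to 660 on the control arrays and 406 to 430 on the HX630 arrays. Markers of other cells were partly present. Gh, Lhb and Sox2 of other pituitary cells, Col1a2, Col3a1 and Dcn of fibroblasts, and Ptprc, Pecam1 and Kdr of blood and endothelial cells were well above background on all arrays, and Prl, Tshb, S100b, Lum, Postn, Lyz2 and Cdh5 on none. The summed signal of the 8 markers of other pituitary cells was 0.70 to 0.86 in the control and 0.40 to 0.47 with HX630. That of the 6 fibroblast markers was 0.11 to 0.13 in the control and 0.11 to 0.16 with HX630, and that of the 5 measured blood and endothelial markers was 2.82 to 3.48 and 2.23 to 2.73. The part of these shifts in the results below was not tested, and fewer expressing cells cannot be told apart from less RNA per cell.

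Most of the 41 genes had a higher signal after HX630 treatment. Of the 41, 35 had a fitted change above 0 (46.4% of all genes did) and 6 below. The call was reached by 8 genes, all higher: Fanci, Brip1, Bard1, Rad54l, Xrcc2, Exo1, Brca2 and Fancd2. This is 19.5% of the members, whereas 8.38% of the 15319 genes tested were called higher. Counted by probe over the array, the share called higher was 7.46%. No member was called lower, by limma or by the methods' t-test with the same fold threshold, against 11.2% of all genes, and 5 members were lower at an unadjusted limma p below 0.05. At an adjusted p below 0.01 with no fold threshold, 27 members were higher (65.9%, against 24% of all genes) and 2 were lower, Rad51d and Mus81 (all genes, 27.2%). The 4 HX630 arrays lay above the 4 control arrays without overlap for 28 members (68.3%, against 28.6% of all genes), lay below them for 3, namely Rad51d, Fance and Mus81 (all genes, 32.8%), and overlapped for 10. The median change of the members was 0.38 on the log2 scale, and that of all genes tested was -0.03. Since the members were chosen with earlier results of these arrays known, these shares are given as a description.

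**Figure D1:**
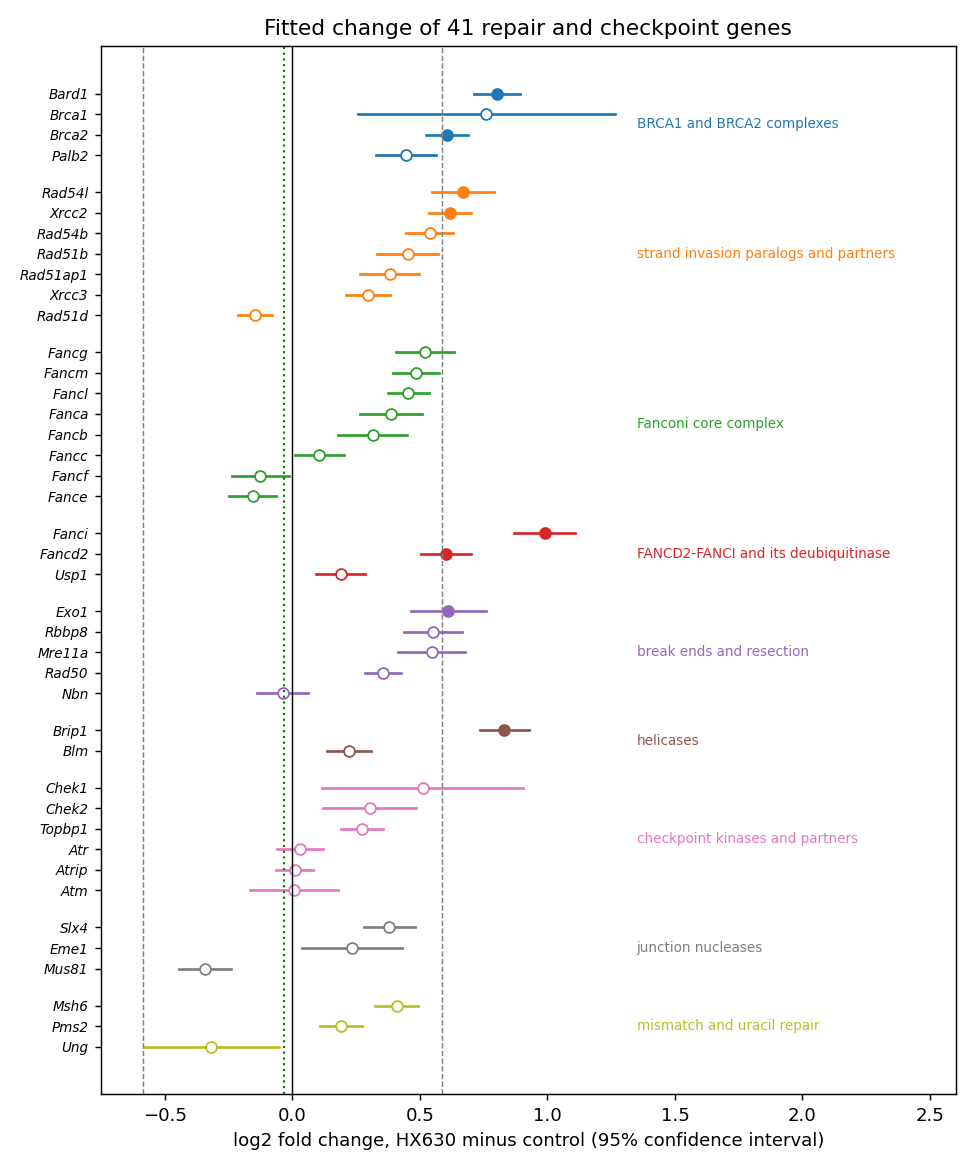
Fitted log2 fold change (HX630 minus control, 4 arrays each) of the 41 genes by role, with 95% confidence intervals from limma as bars. Filled points are the 8 called genes, open points are not called, dashed lines mark a fold change of 1.5 and the dotted green line the median of all genes tested (-0.03). Changes run from -0.34 (Mus81) to 0.99 (Fanci), and the checkpoint kinases Atm and Atr with Atrip lie next to 0.

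The members called moved by 0.60 to 0.99 on the log2 scale, and each had 8 arrays that separated fully by treatment. The threshold on fold change passes through a dense row of genes. Just inside it were Fancd2 (0.60), Brca2 (0.61), Exo1 (0.61) and Xrcc2 (0.62), and just outside it were Rbbp8 (0.55), Mre11a (0.55), Rad54b (0.54) and Fancg (0.52), whose adjusted p was also below 0.01. The difference between 8 genes called and 27 genes past the adjusted p alone therefore lies in the fold threshold.

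**Figure D2:**
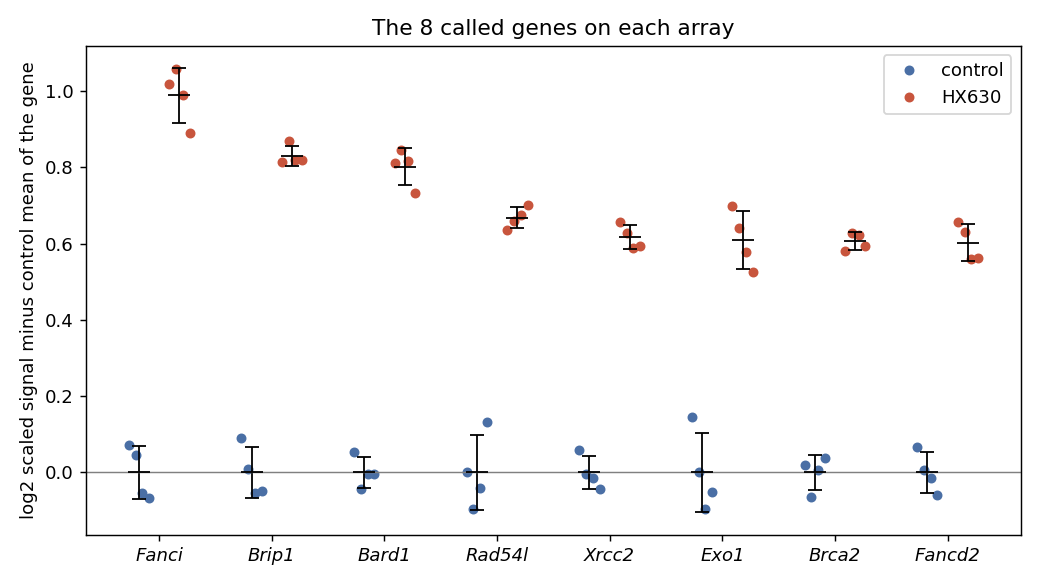
Scaled log2 signal of the 8 called genes on each of the 4 control (blue) and 4 HX630 (red) arrays, given as the difference from the control mean of the same gene. Black bars are the mean ± SD of 4 arrays, and in each gene all HX630 arrays lie above all control arrays.

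BRCA1 and BARD1 form a ubiquitin ligase that acts early in recombination, and BRCA2, bound to BRCA1 through PALB2, acts at the strand invasion step. All 4 genes had a higher signal with HX630 (46.4% of all genes did), with a median change of 0.68. Bard1 had scaled signals of 0.72, 0.62, 0.66 and 0.66 in the control samples and of 1.48, 1.51, 1.48 and 1.40 with HX630. The HX630 arrays lay close together and far above the control arrays. The change was 0.80 ± 0.04 (SE, n = 4 and 4), or 1.74-fold, with a limma adjusted p of 1.47e-06. The other 2 probes of Bard1 were not called: one, with control signals of -4.37, -4.36, -4.26 and -4.32 and HX630 signals of -4.10, -3.58, -3.92 and -3.98, rose by 0.43, and the other changed by 0.23, from -2.27, -2.40, -2.56 and -2.47 to -2.16, -2.19, -2.22 and -2.24. Both also had all HX630 arrays above all control arrays. With the mean of its probes in place of the brightest, Bard1 rose by 0.49 and was not called.

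Brca2 had scaled signals of 0.82, 0.73, 0.81 and 0.84 in the control and of 1.38, 1.43, 1.42 and 1.39 with HX630. Both groups were narrow and did not overlap. It rose by 0.61 ± 0.04 (SE), or 1.52-fold, with a limma adjusted p of 3.71e-06, and it was called in all 25 alternative analyses. Brca1 had signals of -5.60, -4.99, -4.76 and -5.00 in the control and of -4.77, -4.32, -4.01 and -4.20 with HX630. The lowest HX630 array was level with the highest control array, and the spread of the control arrays, an SD of 0.36, was the widest of all members. Its fitted change of 0.76 ± 0.22 (SE) was the largest among the members not called (limma adjusted p = 0.0172), and it was called in 6 of the 25 alternatives, for example without HX630 replicate 1 (0.91), and its change was 0.32 after normexp background correction. Palb2 rose by 0.44 ± 0.05 (adjusted p = 0.000159), below the fold threshold, without overlap between the groups. Its dimmer probe changed by 0.23 (limma adjusted p = 0.0982), with overlapping groups.

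Promoter windows from 250 bases before to 50 bases after the start were found in RefSeq (GRCm38.p6) for 32 of the 41 genes. The E2F motif (TTTCCCGC, TTTCGCGC, TTTGCCGC or TTTGGCGC on either strand), a sequence bound by the E2F factors of the G1/S transition, was present in 6 of the 32 (18.8%), namely Bard1, Brca2, Chek2, Fancg, Topbp1 and Msh6, and in 4.05% of 12198 tested genes with a window. The CCAAT motif was present in 21 (65.6%, against 42.9%), and the CHR motif (TTTGAA or TTCGAA), an element of genes expressed in G2 and M phase, in 4 (12.5%, against 17.2%). These motifs were searched on both strands and their matches may overlap. The stretches around the match are shown for the called genes that have one, Bard1 and Brca2, read 5′ to 3′ on the strand of the gene, with the match in capitals. In Bard1 (chr1:71103148-71103207, minus strand) the match begins 209 bases before the start of the window's transcript, and in Brca2 (chr5:150522427-150522486, plus strand) it begins 168 bases before the start and is the reverse complement of the motif.
Bard1: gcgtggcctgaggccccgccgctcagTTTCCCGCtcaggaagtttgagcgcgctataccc
Brca2: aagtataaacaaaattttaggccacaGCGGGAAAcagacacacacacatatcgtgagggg
The core letters of both matches are TTTCCCGC. Of the 5 called genes with a window, 2 had a match, and of the 27 genes not called 4 had one. A match describes the letters in the window and does not show that a factor binds there.

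The paralogs of this group (RAD51B, RAD51D, XRCC2 and XRCC3) support the strand invasion step, and RAD54L and RAD54B are motor proteins that help to find and invade the matching strand. Of 7 measured genes of this group, 6 were higher (46.4% of all genes were) and 2 were called (8.38% of all genes were called higher). The median change was 0.45. Rad54l had scaled signals of -1.92, -2.02, -1.97 and -1.79 in the control and of -1.29, -1.27, -1.25 and -1.23 with HX630. The HX630 arrays were tighter than the control arrays, and the groups were well apart. It rose by 0.67 ± 0.05 (SE), or 1.59-fold, with a limma adjusted p of 1.94e-05. After normexp background correction it rose by 0.55 and was not called.

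Xrcc2, a paralog, had signals of -1.67, -1.73, -1.74 and -1.77 in the control and of -1.07, -1.10, -1.14 and -1.13 with HX630. The groups did not overlap, and the gene rose by 0.62 ± 0.04 (SE), or 1.53-fold (limma adjusted p = 3.75e-06). Its other probe was dimmer, with signals of -4.02, -3.99, -4.11 and -4.05 in the control and of -3.78, -3.83, -3.83 and -3.99 with HX630. This probe changed by 0.19 only (adjusted p = 0.0178), and the mean of both probes (0.40) was not called. Rad54b had signals of -0.67, -0.62, -0.64 and -0.70 in the control and of -0.15, -0.16, -0.04 and -0.12 with HX630. It rose by 0.54 ± 0.04 (SE; adjusted p = 1.32e-05) without overlap but below the fold threshold. Its dimmer probe went from -3.87, -4.12, -3.82 and -4.004 to -3.27, -3.25, -3.32 and -3.27. This rise of 0.68 was called (adjusted p = 7.59e-05).

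Rad51b (0.45), Rad51ap1 (0.38), which stimulates the joining of strands, and Xrcc3 (0.30) rose at adjusted p below 0.01, with no overlap of the arrays and below the fold threshold. Rad51d, another paralog, was the exception. Its signals were 0.03, 0.00, 0.01 and -0.02 in the control and -0.15, -0.13, -0.12 and -0.15 with HX630. All HX630 arrays lay below the control arrays, and the fitted change was -0.15 ± 0.03 (SE; adjusted p = 0.00287), although it was 0.07 after scaling to the spike-in probes. The other probe of Rad51d had signals of -0.86, -0.93, -0.86 and -0.78 in the control and of -0.83, -0.79, -0.82 and -0.74 with HX630. These groups overlapped, and the change was 0.06 (adjusted p = 0.228), so the 2 probes of Rad51d do not share a direction.

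The Fanconi core complex attaches ubiquitin to FANCD2 and FANCI, with FANCL as the ligase subunit and FANCM as the subunit that recognizes the stalled fork. None of the 8 core genes was called in limma or by the methods' t-test, a count that at 8.38% of all genes called higher says little about so small a group. There were 6 genes higher (46.4% of all genes were) and 2 lower, and the median change was 0.35. At an adjusted p below 0.01, 5 rose (24% of all genes did). At an unadjusted limma p below 0.05, 6 were higher and 2 lower. Fancg had the largest change of the group, with signals of -3.50, -3.48, -3.59 and -3.60 in the control and of -2.94, -3.10, -3.002 and -3.06 with HX630. The groups did not overlap, and the rise was 0.52 ± 0.05 (SE; adjusted p = 5.6e-05). Fancm rose by 0.48, Fancl by 0.45, Fanca by 0.39 and Fancb by 0.32, each without overlap between the groups. Over the alternatives the change of Fancb ran from 0.11 to 0.54, with a limma adjusted p of up to 0.227.

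Fancl was represented by a probe with signals of 0.97, 1.03, 0.95 and 0.99 in the control and of 1.42, 1.48, 1.45 and 1.40 with HX630 (adjusted p = 1.64e-05). Its other probe went from -0.38, -0.31, -0.45 and -0.44 to 0.27, 0.32, 0.25 and 0.29. Both probes separated the groups, and the rise of 0.68 on the dimmer one was called (adjusted p = 5.38e-06). Fancc had signals of -1.59, -1.44, -1.53 and -1.55 in the control and of -1.45, -1.37, -1.44 and -1.43 with HX630 on its brighter probe. These groups met, and the fitted change was 0.11 ± 0.04 (SE; adjusted p = 0.0566). A dimmer Fancc probe with another RefSeq accession went from -4.14, -4.57, -4.31 and -4.56 to -3.84, -3.71, -3.82 and -3.77. This rise of 0.61 was called (adjusted p = 0.00116). Fance (-0.16, adjusted p = 0.0106) and Fancf (-0.13, adjusted p = 0.0527) had fitted values below 0 that were 0.06 and 0.09 after scaling to the spike-in probes.

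FANCD2 and FANCI form the clamp that the core complex marks, and USP1 removes the mark. Fanci changed most of all members. Its signals were -0.93, -0.96, -1.06 and -1.07 in the control and 0.01, 0.05, -0.01 and -0.11 with HX630. The gap between the lowest HX630 and the highest control array was 0.82. Fanci rose by 0.99 ± 0.05 (SE), or 1.98-fold (limma adjusted p = 2.2e-06), and it was called in all 25 alternatives. Fancd2 had signals of -2.997, -3.06, -3.08 and -3.12 in the control and of -2.41, -2.43, -2.50 and -2.50 with HX630. Its groups were also apart, and it rose by 0.60 ± 0.04 (SE), or 1.52-fold (adjusted p = 9.54e-06). The call of Fancd2 was lost without control replicate 4 (0.58) and without HX630 replicate 1 (0.58), and the change was 0.28 after normexp background correction. Usp1 rose by 0.19 ± 0.04 (adjusted p = 0.0051) without overlap.

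The change of the log2 ratio of 2 genes on the same array does not depend on the scaling between arrays, and it was tested for 11 pairs of partner proteins with the exact permutation test, two-sided, whose smallest possible p is 0.0286. The pairs were chosen after the values were seen. Fanci rose by 0.39 ± 0.03 (SE) more than Fancd2, with all 4 HX630 arrays above all 4 control arrays (exact p = 0.0286, 0.0629 after adjustment over the 11 pairs). Fancd2 rose by 0.41 ± 0.02 more than Usp1 with the same exact p and the same lack of overlap. For Brca1 and Bard1 the difference in change was -0.04 with a 95% confidence interval of -0.67 to 0.59, so these arrays cannot place the partners close together or apart. None of the 11 pairs had an adjusted exact p below 0.05, and 5 reached the smallest exact p. An adjusted value below 0.05 would have needed most of the 11 pairs at that smallest p. Its absence therefore says little about any single pair.

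MRE11, RAD50 and NBN form the MRN complex that holds and opens the broken ends, RBBP8 (CtIP) starts their resection, and the nuclease EXO1 extends it. Of these 5 genes, 4 were higher at adjusted p below 0.01 (24% of all genes were), with a median change of 0.55. The call was reached by 1 of the 5, which is near the background of 8.38% in so small a group. Exo1 had signals of 1.85, 1.70, 1.61 and 1.65 in the control and of 2.40, 2.35, 2.28 and 2.23 with HX630. The groups did not overlap, and it rose by 0.61 ± 0.06 (SE), or 1.53-fold (limma adjusted p = 9.26e-05). The call of Exo1 was lost without control replicate 3 (0.58), without HX630 replicate 1 (0.58) and after normexp background correction (0.54), each time because the fold change fell below 1.5.

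Mre11a rose by 0.55 ± 0.06 (SE; adjusted p = 8.98e-05) and Rad50 by 0.35 ± 0.03 (adjusted p = 2.9e-05), both without overlap. A dimmer Rad50 probe changed by 0.23 (limma adjusted p = 0.0376) with overlapping groups. The ratio of Rad50 below is that of its brighter probe. The fitted change of Nbn was -0.04 ± 0.04 (adjusted p = 0.472; 95% confidence interval -0.14 to 0.06) with overlapping groups, and it was 0.18 after scaling to the spike-in probes, 0.05 with the median and 0.01 with quantile normalization. On the same arrays, Mre11a moved 0.58 ± 0.06 above Nbn and Rad50 moved 0.39 ± 0.03 above Nbn. Both ratios separated all HX630 from all control arrays (exact p = 0.0286 each, 0.0629 after adjustment over the 11 pairs). Rbbp8 rose by 0.55 ± 0.05, and its difference from Mre11a was -0.01 (95% confidence interval -0.21 to 0.19).

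**Figure D3:**
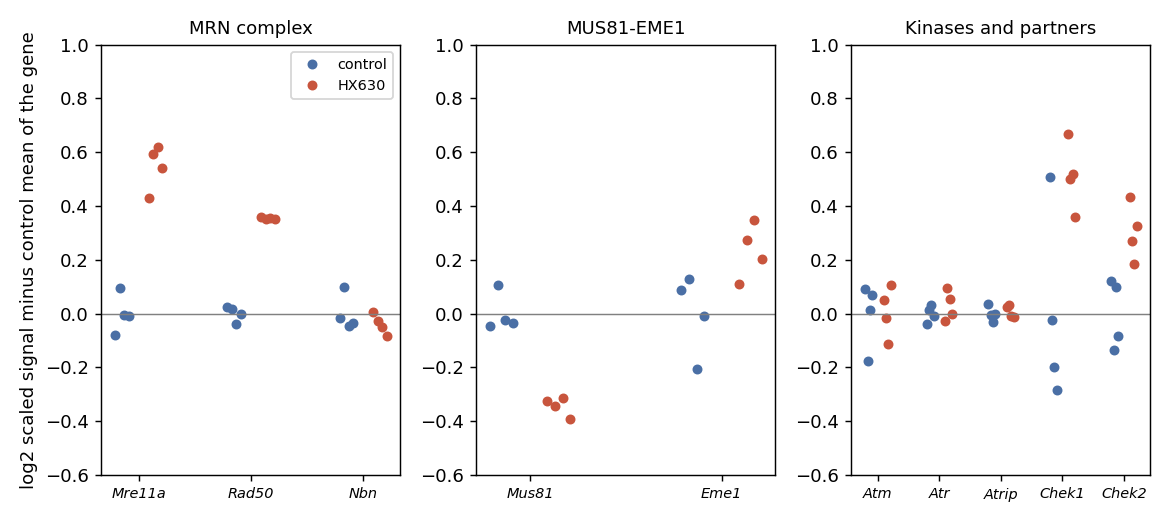
Scaled log2 signal on each control (blue) and HX630 (red) array, as the difference from the control mean of the gene, for the MRN complex, MUS81-EME1 and the checkpoint kinases. Mre11a and the brighter Rad50 probe separate by treatment and Nbn does not. Mus81 lies lower with HX630, and the groups of Atm, Atr and Atrip overlap.

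BRIP1 (FANCJ) is a helicase that binds BRCA1, and BLM is the helicase that dissolves joined DNA molecules. Brip1 had signals of -3.85, -3.93, -3.99 and -3.99 in the control and of -3.13, -3.07, -3.12 and -3.12 with HX630. The HX630 arrays differed little among themselves and were far above the control. Brip1 rose by 0.83 ± 0.04 (SE), or 1.78-fold (limma adjusted p = 1.83e-06), and its call was lost with normexp background correction (0.50). Blm rose by 0.22 ± 0.04 (adjusted p = 0.00134) without overlap.

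The checkpoint kinases and their partners had a median change of 0.15, and none of the 6 was called in limma or by the methods' t-test, while 3 were higher and 0 lower at an unadjusted limma p below 0.05. With 8.38% of all genes called higher, a count of 0 among 6 is near the background. Topbp1, the activator of ATR, was the one gene of this group past an adjusted p of 0.01, with a rise of 0.27 ± 0.04 (adjusted p = 0.000336). Chek1, the kinase downstream of ATR, had signals of -3.92, -4.46, -4.63 and -4.72 in the control and of -3.77, -3.93, -3.91 and -4.07 with HX630. Control replicate 1 stood above the other control arrays and among the HX630 arrays. The fitted change was 0.51 ± 0.17 (SE; adjusted p = 0.0321), and without control replicate 1 it was 0.68 and called, whereas it was 0.21 after normexp background correction. Chek2, the kinase downstream of ATM, changed by 0.30 ± 0.08 (adjusted p = 0.0111) with no overlap. Over the 25 alternatives the change of Chek2 ran from 0.07 to 0.52, and it was called in 0 of them. The kinase ATM itself had signals of -0.13, -0.40, -0.21 and -0.15 in the control and of -0.17, -0.24, -0.33 and -0.11 with HX630. These groups overlapped throughout, and the change was 0.01 (adjusted p = 0.949; 95% confidence interval -0.17 to 0.18), turning to -0.06 with normexp background correction. A dimmer Atm probe went from -1.57, -1.71, -1.69 and -1.64 to -1.70, -1.85, -1.88 and -1.89, a change of -0.18 (adjusted p = 0.0257), so the 2 probes differ in sign. Atr changed by 0.03 (95% confidence interval -0.06 to 0.12) and its partner Atrip by 0.01 (-0.06 to 0.08), which was -0.03 with normexp background correction.

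SLX4 is the scaffold of nucleases that cut joined or crosslinked DNA, and MUS81 and EME1 form one of these nucleases. Slx4 had signals of 1.70, 1.57, 1.57 and 1.57 in the control and of 2.00, 2.01, 1.94 and 1.99 with HX630. The groups did not overlap, and it rose by 0.38 ± 0.04 (SE; adjusted p = 0.000142). Mus81 had the lowest fitted change of all members, -0.34 ± 0.04 (SE; adjusted p = 0.000305), with HX630 arrays at 78.8% of the control signal and no overlap. Eme1 changed by 0.23 (adjusted p = 0.0446) with overlapping groups. On the same arrays, Mus81 moved against Eme1 by -0.58 ± 0.08 (SE), with the groups apart (exact p = 0.0286, 0.0629 after adjustment over the 11 pairs).

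MSH6 takes part in the recognition of mismatches, PMS2 is the nuclease subunit that follows, and UNG removes uracil from DNA. Msh6 had signals of 2.94, 2.98, 2.87 and 2.93 in the control and of 3.36, 3.34, 3.30 and 3.35 with HX630. The groups were well apart, and it rose by 0.41 ± 0.04 (SE; adjusted p = 3.48e-05). Pms2 rose by 0.19 (adjusted p = 0.00214) on its brighter probe. The dimmer Pms2 probe changed by 0.05 (limma adjusted p = 0.379), with overlapping groups. Ung had a fitted change of -0.32 ± 0.11 (SE; adjusted p = 0.0431) with overlapping groups.

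Other genome maintenance genes were listed by function for comparison, with earlier results of these arrays known. Their shares called higher are to be read beside the 8.38% of all genes. Of 29 other genes of recombination and the Fanconi pathway, 18 were higher, 3 were called higher (10.3%) and none lower, with a median of 0.17 (5 were lower at an unadjusted limma p below 0.05). The called genes included Rmi2, a partner of BLM (0.61), and the helicase Wrn (0.61). Of 20 other checkpoint and damage signaling genes, 5 were called higher (25%) and none lower (1 was lower at an unadjusted p below 0.05), with a median of 0.32. Claspin (Clspn), which links ATR to CHK1, rose by 0.93, the damage scaffold Mdc1 by 0.75 and the fork protein Timeless by 0.65. Among 14 end joining genes, which reseal ends without a template, none was called in either direction by limma or the methods' t-test (at an unadjusted limma p below 0.05, 7 were higher and 4 lower), with a median of 0.10. Of 19 other mismatch and base excision genes, 2 were called higher (10.5%), among them Neil3 (0.79), with a median of 0.12. Of 18 nucleotide excision genes 1 was called higher (5.56%), Cetn2 (0.77), with a median of -0.00. None of either list was called lower. At an unadjusted limma p below 0.05, 12 mismatch and base excision genes were higher and 3 lower. For nucleotide excision, 7 were higher and 7 lower.

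All 26 replication licensing and synthesis genes had a fitted change above 0, as did 46.4% of all genes, with a median of 0.37, and 5 were called higher (19.2%). The largest changes were those of Cdc6, which loads the replicative helicase (1.44), Uhrf1, which keeps DNA methylation at the fork (0.75), and Pola1, the polymerase that starts each strand (0.67). All 21 mitotic genes tested also had a fitted change above 0, with a median of 0.30, and 1 was called higher (4.76%, against 8.38% of all genes), Nusap1 (0.71). None of the genes of these replication and mitotic lists was called lower by limma or by the methods' t-test, and 0 were lower at an unadjusted limma p below 0.05. The part of the change in replication and mitotic genes in that of the members was not tested, and RNA of a mixed culture does not tell a change in cell cycle phase from a change within each cell.

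**Figure D4:**
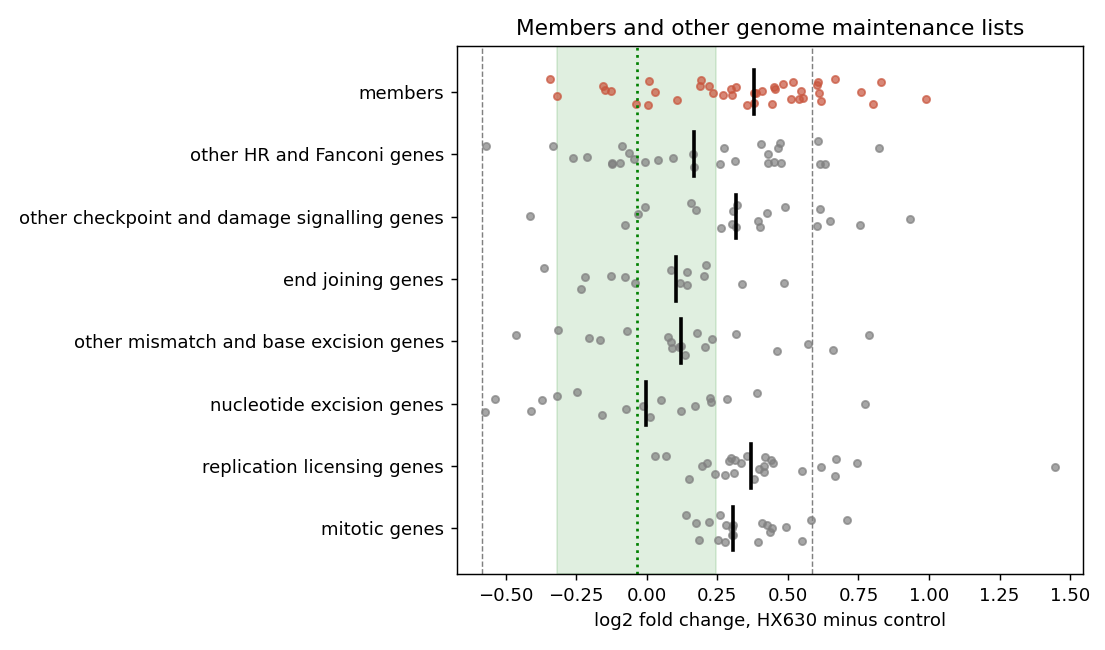
Fitted log2 fold change (HX630 minus control) of each tested gene of the members (red) and of 7 other lists (gray), with the median of each list as a black bar. The green band holds the middle 50% of all genes tested and the dotted line their median (-0.03), and the dashed lines mark a fold change of 1.5. The medians run from -0.00 for nucleotide excision genes to 0.38 for the members.

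How far the members moved in absolute terms depended on the scaling between arrays. Scaling to 8 spike-in probes raised the median change of all genes by 0.22, to 0.19, and that of the members to 0.60, and it called 22 members higher. With the median of each array 13 members were called, with quantile normalization 11, and with normexp background correction 4. The probes called higher over the whole array moved too. They numbered 2131 with the 75th percentile, 4180 with the spike-in probes, 2831 with the median, 2714 with quantile normalization and 1355 with normexp. The 8 members called with the 75th percentile were also called under the 4 other scalings, and 4 of them, Bard1, Brca2, Xrcc2 and Fanci, were called with normexp. The distance of the member median from the median of all genes was 0.42 with the 75th percentile. Scalings that subtract a single value from each array, as the spike-in probes and the median do, cannot change this distance. It was 0.38 with quantile normalization and 0.40 with normexp.

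**Figure D5:**
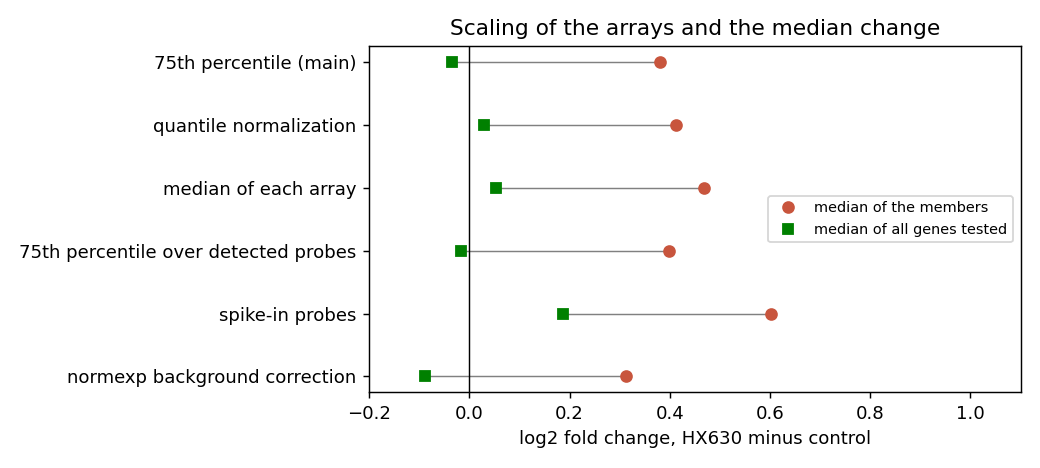
Median log2 fold change (HX630 minus control) of the 41 members (red circles) and of all genes tested (green squares) under 6 ways of scaling or background correction. The medians are 0.31 and -0.09 with normexp and 0.60 and 0.19 with spike-in scaling. The 4 scalings by a single value per array keep the distance at 0.42 by construction, and it is 0.38 with quantile normalization and 0.40 with normexp.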

How the data were processed

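The authors deposited Agilent Feature Extraction output (version 10.7.3.1) of 8 arrays, whose processed intensity is subtracted for background and detrended, and a table of log2 values, which the values show to be scaled to the 75th percentile of the array (median difference from the values used here 0.0011). From the intensities, 1377 control spots and outlier spots were left out, the log2 signal was scaled to the 75th percentile and spots of a probe were averaged, giving 39429 probes, of which 26055 were paired with 19751 symbols through RefSeq accessions. The 28552 probes well above background on at least 4 of 8 arrays were tested in R 4.3.3 with limma 3.58.1 (lmFit, eBayes, no block), with Benjamini-Hochberg adjustment over all of them. All 53 probes of the members were tested and well above background on at least 4 arrays, and none was saturated. Outlier spots occurred in 2 of these probes.

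Single values were tested by exact permutation over the 70 ways to split 8 arrays into groups of 4. The methods name a fold change of 1.5 and a p of 0.01 with a t-test, which was run as an alternative. Values on every array are given for members called, members whose probes differ in call or sign, and the largest change in each role group. Of other lists, up to 3 called genes are named. A pair of genes that this rule would name is not reported here. The members, lists and tests were chosen with earlier results of these data known, and the lists come from general knowledge. The values of Brca1 on every array and the comparison of pairs were added after these values were seen. Alternatives were other scalings, normexp background correction (offset 16, on the median intensity of the spot and its background), the deposited log2 values, other filters, variance models, weights, tests and thresholds, averaging the probes of each gene, the replicate number as a term, and leaving out single arrays. On simulated data of 28542 probes with 200 changed by 1 on the log2 scale, 74% were recovered with 1 false call. The number of arrays limits the precision. The array design names another build than GRCm38.p6, so no probe coordinates are given.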

Additional observations from a re-analysis of the deposited data

Results flagged for a closer look

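In 84 groups of 4 arrays, 5 had an array apart from the other 3 by Dixon's ratio (gap over range, at the 95% critical value), where chance gives about 1 in 20, or 4.2. Control replicate 1 stood above the others in Slx4 (ratio 0.974, signal 1.70 against a mean of 1.57) and in Fancm (0.918, -0.86 against -0.98), and without it the changes were 0.41 and 0.51. HX630 replicate 2 stood above the others in Blm (0.949, 0.37 against 0.33) and in Brip1 (0.892, -3.07 against -3.12), and without it the changes were 0.21 and 0.82. Control replicate 2 stood above the others in Mus81 (0.839, 0.47 against 0.33), and without it the change was -0.31. No call and no direction of these 5 genes changed.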

How the results depend on the processing

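Member calls (8 higher, 0 lower) and the median change (0.38) were recomputed under 25 alternatives. Leaving out 1 array at a time gave 7 to 9 members called higher, 0 to 0 lower and medians of 0.36 to 0.41, with 1944 to 2568 probes called higher and 2879 to 3369 lower. With quantile normalization the median was 0.41. With the median of each array it was 0.47 with 13 members called. With spike-in scaling it was 0.60 with 22 members called, and 4180 probes were higher and 1888 lower. With normexp it was 0.31 with 4 members called and 1355 probes higher. Without a fold threshold 27 members were higher and 2 lower, with 5763 probes higher and 7245 lower. The share of called probes that were higher was 40.1% in the main analysis, 51.6% with the median, 49.8% with quantile normalization, 68.9% with spike-in and 31.8% with normexp. The strict E2F motif TTTCGCGC was in 3.12% of the member promoters (1 of 32) and in 0.68% of the tested genes with a window. For the 4 sequences these shares were 18.8% and 4.05%. Replicate numbers equal the position on the slide, and the deviations of same-numbered arrays correlated at 0.52, -0.01, 0.24 and 0.38, with 5 of 8 arrays correlating best with their own number, so the numbers were not taken to pair the samples. With the replicate block 9 members were called, the 8 and Brca1, with 2210 probes higher and 3345 lower.

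Signs reversed for genes near 0: Nbn with quantile normalization (0.015), the median (0.049) and spike-in (0.18), Rad51d (0.074), Fance (0.065) and Fancf (0.094) with spike-in, Atm with normexp (-0.058), array weights (-0.027) and the mean of its probes (-0.085), and Atrip with normexp (-0.033). With 1 array left out, Atm ranged from -0.052 (without control replicate 2) to 0.046 (without HX630 replicate 3) and Atrip from -0.0024 (without control replicate 3) to 0.021 (without control replicate 1). Of 1025 values of single members under the alternatives, 949 kept direction and side of the threshold, 52 gained the call and 10 lost it. The causes were not tested.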
